A study of Schizosaccharomyces pombe with 6 samples.

Results

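The tRNA and 5S ribosomal RNA genes on the chromosome arms of fission yeast (Schizosaccharomyces pombe) were described on 6 two-colour tiling arrays. All genes annotated as tRNA or 5S rRNA in the RefSeq annotation (assembly ASM294v3) that lay more than 150 kb from a centromere and more than 100 kb from a chromosome end were taken, which gave 136 of the 207 such genes of the 3 chromosomes. They comprised 105 of 171 tRNA genes and 31 of 36 5S rRNA genes, with 54 on chromosome I, 54 on chromosome II and 28 on chromosome III. Of the 71 genes left out, 70 lay near a centromere and 1 near a chromosome end. A gene was called clustered when another tRNA or 5S rRNA gene lay within 1000 bp, and single otherwise, so that 82 tRNA genes and 23 5S genes were single and 23 tRNA genes and 8 5S genes were clustered. The clustered genes formed 15 loci, 14 of 2 genes and 1 of 3 genes.

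The arrays measured where Pds5, a regulatory subunit of the chromosomal ring complex cohesin, and dimethylated lysine 9 of histone H3 (H3K9me2), the mark of heterochromatin, were found along the genome. Each array set DNA recovered by chromatin immunoprecipitation (ChIP, Cy5 dye) against whole-cell extract DNA of the same strain (Cy3 dye). For H3K9me2 there was 1 array per genotype, wild type and pds5D, the latter lacking Pds5. Pds5-GFP was precipitated through its GFP tag from 2 samples of cells labelled wild type, from 1 sample of swi6D cells and from 1 sample of clr4D cells, so all 4 of these carried the tag. Clr4 is the enzyme that methylates lysine 9 of H3, and Swi6 is a heterochromatin protein that binds that mark. All cultures were in log phase in rich medium at 30 °C and were fixed with 3% paraformaldehyde; those for Pds5-GFP were held at 18 °C for 2 h beforehand and fixed with DMA as well. Separate cultures are not named in the labels for the wild-type samples, so the spread between them may be technical. An untagged strain was not analysed here, so a Pds5-GFP level is ChIP over extract, with no measure of what the antibody recovers without the tag.

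RNA polymerase III transcribes both gene families. A tRNA gene carries its promoter inside the transcribed stretch, as an A box and a B box that the factor TFIIIC binds, and a 5S gene adds the factor TFIIIA. In fission yeast, tRNA genes crowd the borders of centromeric heterochromatin, where they act as boundaries, while the arm genes lie scattered between protein-coding genes. In budding yeast, tRNA genes are among the places where the loader of cohesin has been found.

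The genes at both extremes of Pds5-GFP had the same sequence, which is why they are shown first. SPBTRNAPRO.07, the member with the highest wild-type level, and SPBTRNAPRO.06, the one with the lowest, are both tRNA-Pro genes on chromosome II and were identical at all 72 bases (0 substitutions). The 50 bases before them differed at 32 positions without gaps. The stretches below are from RefSeq, assembly ASM294v3, both on the plus strand (chrII:2939665-2939786 and chrII:2319242-2319363), and run from 50 bases before the gene to its end. Capitals mark TATA before the gene and the B-box core GTTCGANNC inside it.
SPBTRNAPRO.07: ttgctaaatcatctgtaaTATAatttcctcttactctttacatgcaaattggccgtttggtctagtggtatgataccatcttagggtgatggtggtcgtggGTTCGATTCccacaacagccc
SPBTRNAPRO.06: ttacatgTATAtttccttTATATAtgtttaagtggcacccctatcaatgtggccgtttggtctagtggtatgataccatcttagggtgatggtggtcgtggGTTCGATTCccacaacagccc

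Each value below is the log2 ratio of ChIP over extract, set to 0 at the array's median probe and averaged over the probes (tiles, spaced by 300 bp) whose position lies within 300 bp of the gene. At SPBTRNAPRO.07 the Pds5-GFP level was 1.57 and 1.77 on the wild-type arrays, 1.82 in swi6D and 1.83 in clr4D. At SPBTRNAPRO.06 it was -0.54 on both wild-type arrays, -0.38 in swi6D and -0.38 in clr4D. The order of the pair was thus the same on all 4 arrays, and the gap between them was far larger than the gap between the wild-type arrays at either gene. Most of this gap was not confined to the genes. Over tiles further out on both sides (the local rise, defined below), the wild-type mean rose by 0.37 at SPBTRNAPRO.07 and 0.06 at SPBTRNAPRO.06. The labels give DNA fragments of 500 to 1000 bp, so a tile also reads DNA around it. SPBTRNAPRO.07 lay between convergent protein-coding genes and SPBTRNAPRO.06 between genes in tandem.

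The family of this tRNA-Pro sequence had 6 genes, all of them on the arms, and its levels covered the whole range of the members. The wild-type means of the other 4 genes were -0.14 at SPBTRNAPRO.05, -0.02 at SPCTRNAPRO.09, -0.01 at SPBTRNAPRO.04 and 0.31 at SPATRNAPRO.03. The local rise covered less, from -0.12 at SPBTRNAPRO.04 to 0.45 at SPATRNAPRO.03 as wild-type means over the 6 genes. Of the 136 members, 76 shared their sequence with at least one other tRNA or 5S gene of the genome. There were 23 families with 2 or more members, and 8 with 4 or more. Within those 8 families the distance from the lowest to the highest wild-type level had a median of 0.98 and ran from 0.16 in a 5S family of 5 members to 2.21 in the tRNA-Pro family. That distance is in level, so it includes differences between the surroundings of the genes. These families were looked at after the levels were seen, and the tRNA-Asp family has 1 member without a Pds5-GFP value. Probe sequences were not used here, and how far a probe at one copy also binds DNA of another was not tested.

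**Figure D1:**
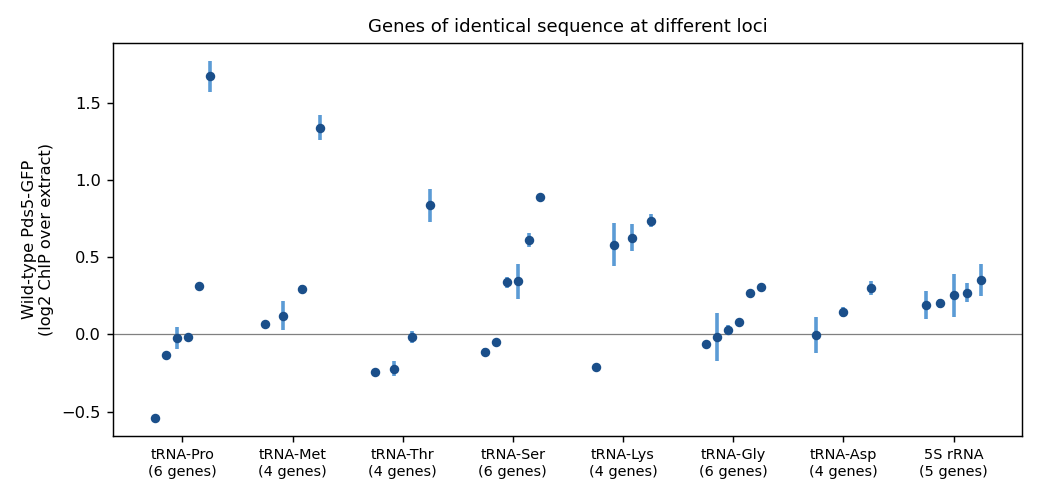
Wild-type Pds5-GFP level (log2 ChIP over extract) of every measured member in the 8 families of at least 4 arm genes with identical sequence. Dots are the mean of 2 arrays and bars run from one array to the other; the tRNA-Pro family spans -0.54 to 1.67 and the 5S family 0.19 to 0.35.

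Each member was covered by 2 tiles (96 genes) or 3 tiles (40 genes), and 135 members had a value on all 4 Pds5-GFP arrays. Their median level was 0.23 on both wild-type arrays, 0.12 in swi6D and 0.29 in clr4D. Over all annotated genes the median was -0.03 and -0.02 in wild type, -0.02 in swi6D and -0.02 in clr4D. In wild type, 95 members on the first array and 96 on the second lay above 0, and 90 did so in swi6D and 104 in clr4D. The members were therefore somewhat higher than the typical gene on each array in these values, by a margin smaller than the range among the members themselves. This order depended on the extract signal and on background. With a normexp background correction the member median was -0.15 and 0.15 in wild type, 0.40 in swi6D and 0.04 in clr4D, so on the first wild-type array it fell below that of all genes (-0.04). In the ChIP signal alone it was -1.25 and -1.07 in wild type, -1.33 in swi6D and -1.25 in clr4D, below that of all genes (-0.17 to -0.16) on all 4 arrays.

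The single tRNA genes ranged on the first wild-type array from -0.54 to 1.57 with a median of 0.21, and on the second from -0.66 to 1.77 with a median of 0.15. Clustered tRNA genes ranged from -0.17 to 1.42 (median 0.27) and from -0.30 to 1.26 (median 0.48) on these arrays. The 5S genes ranged from -0.51 to 1.22 (median 0.29) and from -0.43 to 1.22 (median 0.20). As the mean and SD of the 2 wild-type medians, this is 0.18 ± 0.05 for single tRNA genes, 0.37 ± 0.15 for clustered tRNA genes and 0.24 ± 0.07 for 5S genes (n = 2 arrays). The clustered tRNA genes had the highest of the 3 medians on the second wild-type array, in swi6D (0.16) and in clr4D (0.49). On the first wild-type array the 5S median was higher, so the order of these groups was not the same between replicates. Among 64 snRNA and snoRNA genes of the arms, which make other short RNAs, the medians were 0.05 and 0.09 in wild type.

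**Figure D2:**
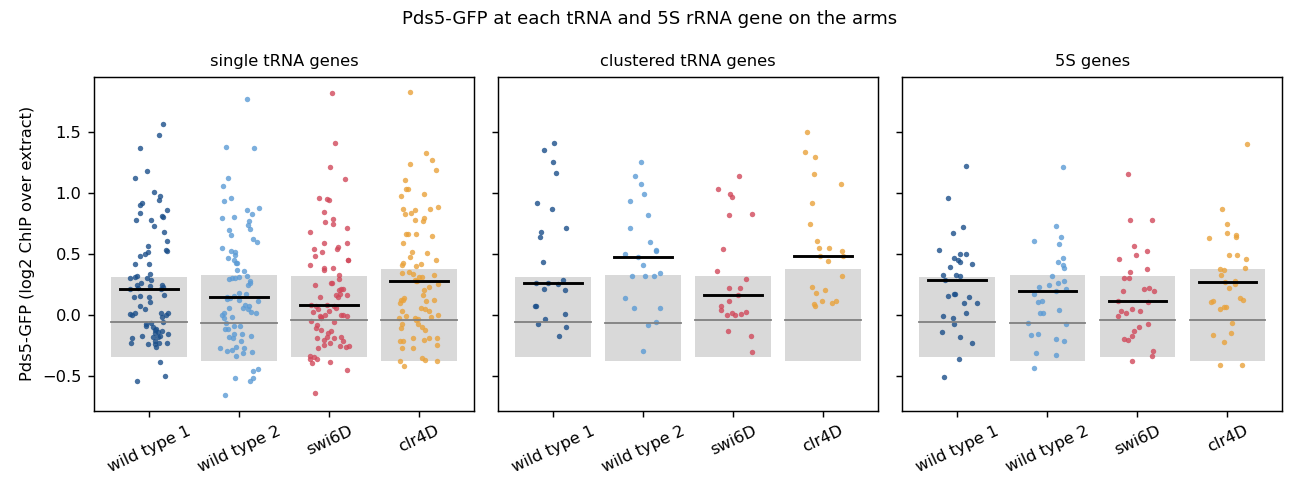
Pds5-GFP level (log2 ChIP over extract) of every measured member on the 4 arrays, by class. Black lines are class medians; grey boxes and lines are the quartiles and the median of the other arm genes. The lowest member is at -0.54 and -0.66 in wild type, -0.64 in swi6D and -0.42 in clr4D, and the highest at 1.57, 1.77, 1.82 and 1.83.

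To separate the gene from its neighbourhood, the level within 300 bp was set against the tiles 900 to 2100 bp away on both sides, leaving out tiles near other tRNA or 5S genes. This difference, here called the local rise, had a median over members of 0.24 and 0.25 on the wild-type arrays, 0.22 in swi6D and 0.28 in clr4D. It was above 0 at 115 and 117 of 135 members in wild type, at 116 in swi6D and at 119 in clr4D. At 858 other intergenic spaces of the arms with a like length (736 to 2716 bp), the median local rise was -0.08 and -0.10 in wild type, -0.06 in swi6D and -0.14 in clr4D. In these ratios the members thus stood above their own flanks on all 4 arrays, while the middle of a typical intergenic space of that length stood slightly below. In the ChIP signal alone the contrast turned: the median rise of members was -1.02 and -1.02 in wild type, -1.12 in swi6D and -1.19 in clr4D, against -0.93, -0.99, -0.98 and -1.03 at those spaces.

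In the ratios the rise was seen in every class. Single tRNA genes had a median of 0.21 and 0.18 in wild type, 0.18 in swi6D and 0.19 in clr4D. Single 5S genes had 0.27 and 0.28 in wild type, 0.29 in swi6D and 0.36 in clr4D, and all 8 clustered 5S genes were above 0 on each of the 4 arrays. At clustered tRNA genes it was 0.19 and 0.30 in wild type, 0.27 in swi6D and 0.34 in clr4D.

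The mean profile showed the same by distance. At single tRNA genes the wild-type mean was 0.28 at the gene, 0.03 at 1200 bp upstream and 0.05 at 1200 bp downstream. The value at 1200 bp upstream was the lowest within 3900 bp. At 3900 bp the mean was 0.13 upstream and 0.07 downstream. At 5S genes it was 0.35 at the gene, -0.09 at 1200 bp upstream and -0.12 at 1200 bp downstream. At clustered tRNA genes it was 0.56 at the gene, 0.04 at 1200 bp upstream and 0.32 at 1200 bp downstream, so the level there fell off on one side and stayed up on the other.

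**Figure D3:**
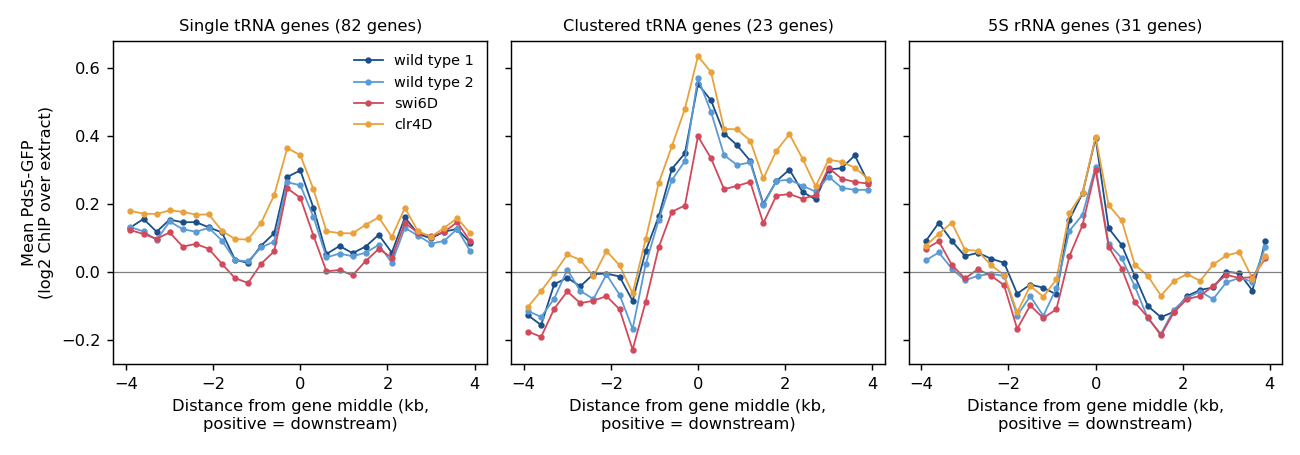
Mean Pds5-GFP level (log2 ChIP over extract) of the tiles at each distance from the middle of the gene, in bins of 300 bp, for single tRNA, clustered tRNA and 5S genes; lines are the 4 arrays. Clustered tRNA and 5S genes are highest at the gene on all 4 arrays (0.56 and 0.35 as wild-type means); single tRNA genes are highest there on the first wild-type array and 300 bp upstream on the other 3.

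The members are dim on these arrays, and the rise depended on how background was treated. The extract signal at members had a median between -1.80 and -1.26 on the 6 arrays, against -0.17 to -0.13 at the other arm genes (log2, relative to the array median). Comparison spaces were then limited to like length and an extract signal between -2.68 and -0.27 (578 spaces, a choice made after seeing the data). Their median rise in wild type was -0.10 and -0.10, close to the value above. These spaces were still brighter than the members, with a median extract signal of -1.03 against -1.43 on the Pds5-GFP arrays. Dimness was thus only partly matched. With a normexp background correction of the unprocessed signals, the median rise of members was -0.10 and 0.18 in wild type, 0.47 in swi6D and 0.07 in clr4D, against -0.18 and -0.07, 0.30 and -0.19 at the spaces of like length. Under that correction members were above the other spaces on all 4 arrays, yet not above their own flanks on the first wild-type array. With dim tiles left out (128 members measured) it was 0.21 and 0.25 in wild type, 0.22 in swi6D and 0.26 in clr4D. On the H3K9me2 arrays the members also had a local rise, whose median was 0.12 in wild-type and 0.24 in pds5D cells, against 0.02 and 0.02 at the spaces of like length; how much of the rise is shared by any antibody was not tested.

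The neighbouring protein-coding genes of a member can point towards it from both sides (convergent), away from it (divergent) or the same way (tandem). Of the members, 19 lay between convergent genes, 46 between divergent genes and 70 between genes in tandem, and 1 overlapped a gene. The wild-type median was 0.54 and 0.47 at convergent sites, 0.02 and 0.06 at divergent sites and 0.25 and 0.23 at tandem sites. In other spaces of like length it was 0.15 and 0.17 (29 convergent), -0.25 and -0.28 (509 divergent) and -0.10 and -0.15 (320 tandem). The order by orientation was thus the same with and without a tRNA or 5S gene, and in each orientation the members had the higher median on both arrays. The median local rise of members in wild type was 0.40, 0.20 and 0.23 in that order of sites. The medians of members run over genes, so neighbours in one space, which can share tiles, count more than once. Members were read at the gene and the other spaces at their middle.

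After SPBTRNAPRO.07, the highest single gene was SPATRNAMET.02, a tRNA-Met gene, with 1.48 and 1.38 in wild type, 1.41 in swi6D and 1.33 in clr4D. SPATRNALYS.03, a tRNA-Lys gene, followed with 1.37 and 1.37, then 1.12 in swi6D and 1.28 in clr4D. The highest 5S gene, SPRRNA.05, had 1.22 and 1.22 in wild type, 1.16 in swi6D and 1.40 in clr4D, and SPATRNAVAL.02, for tRNA-Val, had 1.13 and 1.13, 1.22 and 1.24. All 5 stood above 1 on each of the 4 arrays.

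At the lower end, SPCTRNATHR.10, for tRNA-Thr, had -0.50 and -0.51 in wild type, -0.45 in swi6D and -0.24 in clr4D. SPBTRNAASN.03, for tRNA-Asn, had -0.23 and -0.66 in wild type, -0.64 in swi6D and -0.35 in clr4D, so its place depends on which wild-type array is read. Although low in level, both had a local rise above 0, of 0.12 and 0.25 in wild type.

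Among the clustered genes, the highest was SPCTRNAMET.07 on chromosome III. It forms a pair with SPCTRNASER.11, which ranked 3 among them, and the 2 genes are separated by 7 bp and share tiles. SPCTRNAMET.07 had 1.42 and 1.26 in wild type, 1.14 in swi6D and 1.50 in clr4D. SPRRNA.05 lies 1056 bp from this pair, just past the limit for a cluster, so that 3 genes of both families stood above 1 in wild type within one neighbourhood. SPCTRNAMET.07 has the same sequence as 3 other members, whose wild-type means ran from 0.07 to 0.29 in the plot of identical genes.

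The one locus of 3 genes, on chromosome II, holds SPBTRNAGLN.01, SPBTRNAGLN.02 and SPBTRNAGLN.03. At SPBTRNAGLN.02 the level was 1.36 and 1.14 in wild type, 1.04 in swi6D and 1.30 in clr4D, and the wild-type means of SPBTRNAGLN.03 and SPBTRNAGLN.01 were 1.05 and 0.96. The 7 tiles of the locus averaged 1.17 and 1.02 in wild type, 0.94 in swi6D and 1.19 in clr4D, and 0.13 and 0.11 for H3K9me2 in wild type and pds5D. SPBTRNAGLN.01 and SPBTRNAGLN.02 differ by 1 base in the anticodon, C34T, counted from 1 at the 5′ end (SPBTRNAGLN.01's base, then SPBTRNAGLN.02's). Both are shown from RefSeq, assembly ASM294v3, with the B-box core in capitals, at chrII:257454-257525 on the plus strand and chrII:257908-257979 on the minus strand.
SPBTRNAGLN.01: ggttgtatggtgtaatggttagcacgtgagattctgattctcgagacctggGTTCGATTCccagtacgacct
SPBTRNAGLN.02: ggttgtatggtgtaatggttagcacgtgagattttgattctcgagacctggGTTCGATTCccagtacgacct

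The lowest clustered genes were SPBTRNAARG.04, with -0.09 and -0.30 in wild type, SPBTRNAGLY.06, with -0.07 and -0.06, and SPBTRNAGLY.05, with -0.03 and -0.08. In clr4D these 3 genes read 0.10, 0.18 and 0.09.

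By amino acid, the tRNA-Gln genes had the highest median of the wild-type mean (0.78, 6 genes, from -0.39 to 1.25). Of these, SPBTRNAGLN.01, SPBTRNAGLN.02 and SPBTRNAGLN.03 lie at the same locus, with 0.96, 1.25 and 1.05, and the others read -0.39, -0.34 and 0.60. The tRNA-Lys genes followed (0.68, 8 genes, from -0.21 to 1.37), and the tRNA-Thr genes had the lowest median (-0.18, 7 genes, from -0.51 to 0.83). The ranges overlapped widely, as in the families of identical genes. Across the 135 members the wild-type arrays correlated at r = 0.932 (Spearman 0.913). The first wild-type array correlated at r = 0.917 with swi6D and 0.936 with clr4D, and the second at 0.928 with swi6D. The wild-type mean correlated at r = 0.939 with swi6D and 0.953 with clr4D. Being a mean of 2 arrays, it is not set against the value between single arrays. These are descriptions over genes that share arrays, and neighbours share tiles.

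The B-box core GTTCGANNC was found on the gene's own strand in 78 of 105 tRNA members (74.3%) and on the other strand in 1, and in none of the 31 5S members (0). In windows of 73 bases at the start of 5111 protein-coding genes it was found in 10 (0.196%) on the gene's strand and 8 on the other. The median wild-type level was 0.24 for the tRNA members with it and 0.23 for the 27 without. The letters TATA, which read the same on both strands, were found in the 50 bases before 91 of 105 tRNA members (86.7%) and 12 of 31 5S members (38.7%), against 33.8% of protein-coding starts. The wild-type median was 0.22 in the tRNA members with TATA and 0.32 in the 14 without it, and the other way round in the 5S members, with 0.30 and, in the 19 without it, 0.13. This motif lay before the gene and could not overlap the B-box core.

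The 5S family of 5 identical members is shown by SPRRNA.10 (chrI:149658-149776, plus strand), because its sequence at 5 loci went with the narrowest range of levels in the plot of identical genes. The first 119 bases of SPRRNA.05, the highest 5S gene (chrIII:1690945-1691075, plus strand), differ from it by 1 base, C20T, given as SPRRNA.10's base, the position from the 5′ end and SPRRNA.05's base.
SPRRNA.10: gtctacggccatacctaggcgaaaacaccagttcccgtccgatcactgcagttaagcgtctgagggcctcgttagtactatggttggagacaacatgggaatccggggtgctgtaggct
SPRRNA.05: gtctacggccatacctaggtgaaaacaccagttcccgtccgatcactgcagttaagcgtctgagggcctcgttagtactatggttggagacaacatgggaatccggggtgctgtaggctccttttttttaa

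The swi6D array asks whether Pds5-GFP at these genes differs in cells without the heterochromatin protein. There, 6 of 135 members were lower (4.44%) and none was higher at an adjusted p under 0.05 (limma with Benjamini-Hochberg adjustment over all 12538 annotated genes), against 5.22% lower and 1.08% higher over all genes. With 0 members called higher, 1 was higher at an unadjusted p under 0.05 (0.741%, against 5.46% of all genes). Over the other arm genes 1.43% were lower and 1.16% higher. Of the 66 measured tRNA and 5S genes left out for lying near a centromere or end, 55 were lower (83.3%), and their median fell from 1.89 and 1.95 to 0.94. The share of members called was close to the share over all genes, which includes heterochromatin.

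The test has limits of its own: 1 degree of freedom between the wild-type arrays stands for the spread of all groups, so the lone swi6D array is assumed to vary as they do. limma drew each gene's variance towards a value shared by all genes, with 1595 prior degrees of freedom, so the SE was 0.11 at every member, also where the wild-type arrays lay far apart, and the adjusted p values rest on that shared value. The swi6D array shares a slide with the second wild-type array, and with the slide as a block no degree of freedom was left for a test.

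The 6 genes were 3 for tRNA-Lys and 1 each for tRNA-Tyr, tRNA-Arg and tRNA-Glu. SPATRNALYS.05 had 0.78 and 0.70 in wild type, 0.21 in swi6D and 0.78 in clr4D, a difference of -0.53 in swi6D (SE 0.11, adjusted p = 5.96e-05 by limma). SPBTRNALYS.09 had 0.71 and 0.54 in wild type, 0.02 in swi6D and 0.55 in clr4D, a difference of -0.61 (adjusted p = 1.42e-06 by limma). SPBTRNATYR.04, 341 bp from it and sharing a tile, had 0.64 and 0.52, then 0.12 and 0.61 (adjusted p = 0.000765 by limma). At these 3 genes swi6D lay well below both wild-type arrays while clr4D lay within or close to their range. These 3 calls were lost with normexp, where the differences were 0.29, -0.02 and 0.13 in the order given. They were also lost with the ChIP signal alone, where the differences were -0.60, -0.53 and -0.37.

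The difference reached past the window at SPATRNALYS.05 and SPBTRNALYS.09. The tile 758 bp after SPATRNALYS.05 read 0.47 and 0.49 in wild type, 0.07 in swi6D and 0.65 in clr4D. The tile 684 bp before SPBTRNALYS.09 read -0.46 and -0.48 in wild type, -0.78 in swi6D and -0.34 in clr4D. The local rise in swi6D at SPATRNALYS.05 was 0.17, against 0.42 and 0.51 in wild type, and at SPBTRNALYS.09 it was 0.32 against 0.60 and 0.63. Both genes have the same sequence as 2 further members and as 2 genes near the centromeres. Those 2 members read -0.21 (SPATRNALYS.04) and 0.58 (SPCTRNALYS.12) as wild-type means. Over the 47 tRNA members with an identical copy near a centromere or end the median difference in swi6D was -0.08, and over the 58 without one -0.06, with 3 called genes in each set.

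The third tRNA-Lys gene, SPATRNALYS.01, had the largest difference: 0.26 and 0.43 in wild type, 0.13 in clr4D and -0.34 in swi6D (adjusted p = 2.36e-08 by limma). This call was lost with normexp, where the difference was 0.12. It lies 484 bp from swi6, the gene deleted in that strain. On the swi6D array the extract signal 732 bp away, on the side of swi6, was -8.14, against -0.94 and -0.36 on the wild-type arrays, and that of a counted tile 132 bp away was -1.27, against -0.34 and -0.46. The ratio was also lower in swi6D than on both wild-type arrays at the tiles on the other side of the gene, for example -0.73 against -0.27 and -0.22 at 986 bp. The part of the neighbouring deletion in the difference was not tested. Its sequence differs from SPATRNALYS.05 by 1 base, C47A, given as SPATRNALYS.05's base, the position from the 5′ end and SPATRNALYS.01's base. Both are from RefSeq, assembly ASM294v3, plus strand, at chrI:3086310-3086392 and chrI:1704582-1704664, with the B-box core in capitals.
SPATRNALYS.05: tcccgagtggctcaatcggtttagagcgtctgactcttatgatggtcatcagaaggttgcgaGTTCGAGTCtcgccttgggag
SPATRNALYS.01: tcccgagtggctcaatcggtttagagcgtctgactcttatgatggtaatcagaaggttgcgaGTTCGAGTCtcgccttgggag

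SPATRNAARG.01 had 0.33 and 0.00 in wild type and -0.24 in swi6D (adjusted p = 0.00452 by limma), with an extract signal between -4.15 and -3.24 on the Pds5-GFP arrays, among the dimmest windows described here. The call was made in the same direction under 6 of 12 other settings and turned with normexp, where SPATRNAARG.01 was higher in swi6D by 1.50 (adjusted p = 8.2e-07 by limma). SPATRNAGLU.01 had 0.86 and 0.83 in wild type, 0.52 in swi6D and 0.84 in clr4D (adjusted p = 0.0455 by limma), a call made under 3 of 13 other settings. By the rule of size, which asks for at least 0.5 below or above both wild-type arrays, 2 members were lower (1.48%), SPATRNALYS.01 and SPBTRNALYS.09, and 0 higher. Over all genes 2.77% were lower and 0% higher, and over the other arm genes 0.269% and 0%. Without SPATRNALYS.01 the count of members was 1.

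The members as a set shifted little. The median difference of swi6D from the wild-type mean was -0.06 over members and 0.01 over all genes. Below both wild-type arrays lay 69 of 135 members (51.1%, against 34.9% of all genes and 30.3% of the other arm genes). Above both lay 25 members (18.5%, against 36.9% and 40.4%). With a normexp background correction the member median turned to 0.29 while that of all genes moved to -0.15, so the direction depended on the background correction. Of the clustered genes the furthest below after SPBTRNALYS.09 and SPBTRNATYR.04 was SPBTRNAALA.07, with 0.22 and 0.48 in wild type and 0.02 in swi6D (adjusted p = 0.051 by limma). The furthest above among single genes was SPRRNA.54, a 5S gene, with -0.18 and -0.07 in wild type and 0.20 in swi6D (adjusted p = 0.0547 by limma).

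**Figure D4:**
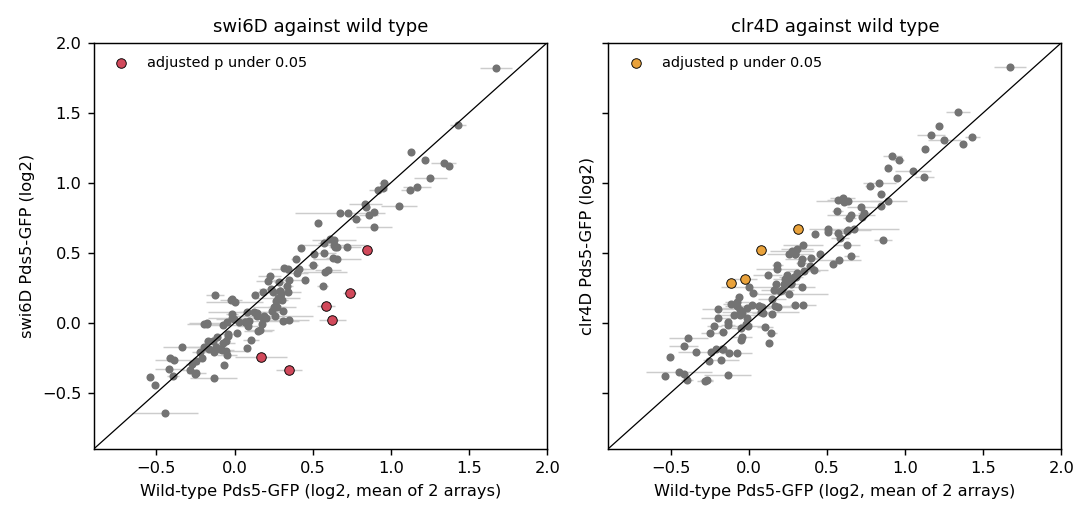
Pds5-GFP level of each member in swi6D (left) and clr4D (right) against the mean of 2 wild-type arrays (grey bars run from one wild-type array to the other), in log2 ChIP over extract, with the line of equality. Coloured points passed an adjusted p of 0.05: 6 below the line in swi6D and 4 above it in clr4D.

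In clr4D cells, which lack the H3K9 methyltransferase, 4 of 135 members were higher (2.96%) and 0 lower at an adjusted p under 0.05 by limma, against 1.37% higher and 4.93% lower over all genes; 5 members were lower at an unadjusted p under 0.05 (3.7%, against 9.19%). Over the other arm genes 1.34% were higher and 1.23% lower. Of the 66 tRNA and 5S genes left out, 46 were lower (69.7%) and 1 higher (1.52%). The clr4D array was alone on its slide, so slide and genotype cannot be told apart.

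SPATRNAGLY.02 had 0.08 and 0.08 in wild type, -0.18 in swi6D and 0.52 in clr4D, a difference of 0.44 (adjusted p = 0.00165 by limma). SPCTRNASER.07 had -0.14 and -0.09 in wild type and 0.29 in clr4D (adjusted p = 0.00556 by limma). SPATRNAPRO.03 and SPCTRNAPRO.09, both of the tRNA-Pro family shown above, had 0.31 and 0.32, then 0.67 in clr4D, and -0.09 and 0.05, then 0.31 (adjusted p = 0.0227 and 0.0414 by limma); these calls were made under 4 and 2 of 13 other settings, and none of the 4 calls in clr4D was made with normexp or with the ChIP signal alone. The ChIP signal alone was lower in clr4D at SPCTRNASER.07 (a difference of -0.53) and SPATRNAPRO.03 (-0.48), and with normexp SPATRNAPRO.03 was also lower (-0.16). None of the 4 reached the rule of size, which no member passed in either direction (0 of 135). Over all genes 0.0239% were higher and 2.66% lower, and over the other arm genes 0.0186% and 0.269%. At SPCTRNASER.07 the extract signal was -2.11 on the clr4D array and -1.20 and -1.16 on the wild-type arrays. Its part in the difference was not tested. At SPATRNAGLY.02 the difference reached past the window: the tile 600 bp after the gene read 0.49 and 0.38 in wild type and 0.75 in clr4D.

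As a set, the members had a median difference of 0.07 in clr4D, against 0.01 over all genes. Above both wild-type arrays lay 75 of 135 members (55.6%, against 39.7% of all genes and 42.4% of the other arm genes). Below both lay 21 members (15.6%, against 34.8% and 30.5%). The median difference turned to -0.03 in the ChIP signal alone, against -0.01 over all genes. There 7 members passed the rule of size, but the share over all genes was not counted in that setting. All 31 clustered members had a level above 0 in clr4D, with a range of 0.07 to 1.50. The furthest below wild type were SPRRNA.35, with 0.15 and 0.11 in wild type and -0.14 in clr4D, and SPATRNAALA.01, a tRNA-Ala gene, with 0.92 and 0.80, then 0.59; neither passed the test (adjusted p = 0.139 and 0.151 by limma). Nor did SPBTRNALEU.05, a tRNA-Leu gene with 0.02 and -0.28 in wild type and -0.37 in clr4D (adjusted p = 0.229 by limma). Of the clustered genes the third furthest above was SPBTRNAGLY.04, a tRNA-Gly gene with 0.21 and 0.41 in wild type and 0.53 in clr4D (adjusted p = 0.293 by limma). Both mutants were set against the same wild-type arrays, so their differences are not independent of each other.

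The H3K9me2 arrays give the heterochromatin mark at the same genes in cells with and without Pds5. With 1 array per genotype there is no test, and the values describe these arrays. The wild-type array had 1306 spots flagged as outliers and the pds5D array 111, against 2 to 99 on the Pds5-GFP arrays. Flagged tiles were left out on both H3K9me2 arrays, so some members rest on fewer tiles there, and SPBTRNALYS.09 has no value. Over 135 members the median level was 0.07 in wild type and 0.08 in pds5D, against 0.01 and 0.00 over all annotated genes and -0.04 and -0.07 over the other arm genes. The highest member was 1.45 in wild type and 1.84 in pds5D, and 3 members reached 1 in wild type and 8 in pds5D. At the 64 measured tRNA and 5S genes left out, the medians were 4.40 in wild type and 4.07 in pds5D, so the arm members lay near the level of ordinary arm genes and far from that of the genes at the centromeres.

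Across members the wild-type Pds5-GFP mean and wild-type H3K9me2 correlated at r = 0.058 over 134 genes. H3K9me2 in wild type and pds5D correlated at r = 0.555 over 135 members (Spearman 0.58), against 0.783 over 10770 other arm genes (Spearman 0.71). The values of r cover unlike ranges, since wild-type H3K9me2 reached 6.99 in the other arm genes and 1.45 in members. All these correlations describe genes that share arrays and extract signals. The highest wild-type H3K9me2 levels among single genes were 1.45 at SPATRNAASP.01 (1.02 in pds5D), 1.30 at SPATRNALYS.02 (0.73) and 0.998 at SPATRNAILE.01 (-0.37). Among clustered genes they were 1.18 at SPBTRNAGLY.06 (0.75), 0.82 at SPBTRNAASN.04 (0.11) and 0.64 at SPCTRNALYS.12 (0.48). SPATRNALYS.02 and SPATRNALYS.03 have the same 75 bases, and their wild-type H3K9me2 levels were 1.30 and 0.00.

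Between the arrays, 16 of 135 members were higher in pds5D by 0.5 or more (11.9%) and 10 lower (7.41%), against 10.4% and 5.89% of all genes and 7.02% and 4.94% of the other arm genes. The median difference was 0.02 over members and -0.01 over all genes. The largest upward difference was at SPATRNASER.04, from 0.45 to 1.84, followed among single genes by SPRRNA.10, from 0.26 to 1.31, and SPATRNAGLU.02, from 0.11 to 0.89. Among clustered genes the largest were the neighbours SPRRNA.28, from -0.37 to 0.94, and SPBTRNAHIS.01, from -0.05 to 1.06, and then SPBTRNAASN.02, from 0.36 to 1.25. In the other direction were SPBTRNASER.05, from 0.83 to -0.87, SPATRNAILE.01, from 0.998 to -0.37, and SPATRNAGLY.01, from 0.40 to -0.53, and among clustered genes SPBTRNAASN.04, from 0.82 to 0.11, SPBTRNAGLY.06, from 1.18 to 0.75, and SPRRNA.06, from 0.07 to -0.33. With no replicate, these differences cannot be set against an error.

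The 5 members of the 5S family with an identical copy near a centromere or end had a median difference of 0.72, and the 26 others 0.07. For tRNA members with and without such a copy it was -0.05 and -0.02. The 5 members of the 5S family include SPRRNA.10 and SPRRNA.28, already named for their large upward differences. With no replicate, a trait of the family was not tested.

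**Figure D5:**
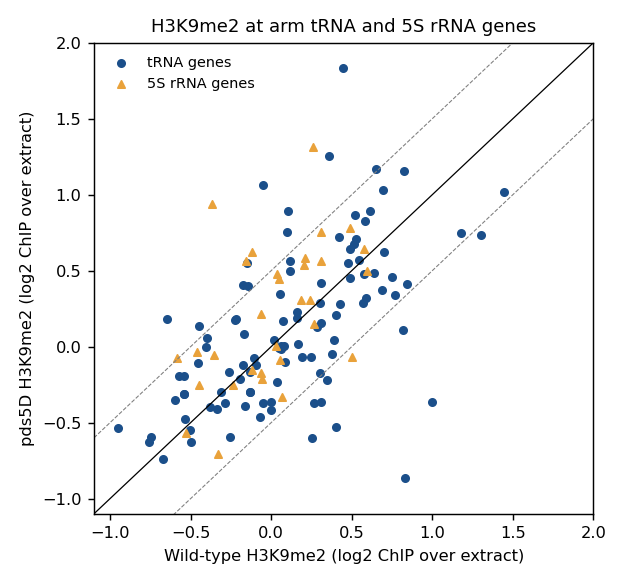
H3K9me2 level (log2 ChIP over extract) of 135 members in pds5D against wild type, with tRNA genes as circles and 5S genes as triangles. The solid line marks equality and the dashed lines a difference of 0.5; 16 members lie on or above the upper one and 10 on or below the lower one.

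Genes of the transcription and cohesin machinery were read on the same arrays. Of 11 genes for RNA polymerase III and its factors (rpc1, rpc2, sfc1, sfc2, sfc3, sfc4, sfc6, brf1, bdp1, tbp1 and maf1), all 11 were measured and 0 were called in either direction in swi6D or clr4D by limma; at an unadjusted p under 0.05 there were 3 in swi6D and 3 in clr4D, against 15.1% and 16% of all genes. The same held for all 9 genes for cohesin, its loader and its regulators (rad21, psm1, psm3, psc3, pds5, wpl1, eso1, mis4 and ssl3), with 0 calls and 0 at an unadjusted p under 0.05. The median wild-type Pds5-GFP level over these protein-coding genes was 0.00 in the first list and 0.15 in the other, with no member of either list higher than sfc4, a TFIIIC subunit gene, at 0.59 and 0.57.

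The deletions were checked on the extract channel. Extract signal over the coding part of the deleted gene was -6.95 for pds5 on the pds5D array, -6.86 for swi6 on the swi6D array and -6.56 for clr4 on the clr4D array, and no lower than -1.13 for any of them elsewhere, so each deletion matched its label. After SPATRNALYS.01, the members nearest to a deleted gene were SPBTRNAHIS.01 and SPRRNA.28, 5828 and 6117 bp from clr4. The member closest to the 150 kb limit was SPATRNALEU.03 (159.7 kb from the centromere), with 1.01 and 0.78 in wild type, 0.69 in swi6D and 0.87 in clr4D, and the closest gene left out was SPCTRNAARG.09 (138.5 kb), with 0.98 and 0.86, 0.47 and 1.06. At the 100 kb limit, SPCTRNAGLY.10 (113.7 kb from the end) had 0.25 and 0.28, 0.15 and 0.28, and SPCTRNAHIS.03 (71.4 kb), the 1 gene left out there, had -0.61 and -0.50, -0.47 and -0.49.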

How the data were processed

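The data are 6 Agilent two-colour tiling arrays with the ChIP DNA in Cy5 and the extract DNA in Cy3, amplified by random-primed PCR per the labels. Spot intensities were deposited as scanner output with processed signals, made with Agilent Feature Extraction 12.0.3.1 per the submitters' processing notes. Log10 ratios of Cy5 over Cy3 were made by the scanner software and stand in the deposited files, per the file headers. The authors also deposited log2 ratios, which lay within 0.01 of these, put on the log2 scale, at 41243 or more of 41251 positions on each array. The other deposited columns used are spot flags, per the file headers.

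Each array's log2 ratio of processed signals was centred on its median, with no loess; tiles flagged as outliers on any array of an antibody were left out for that antibody. Each array had 42968 spots, of which 41551 were not controls, and at least 98.4% were well above background; the number of arrays limits the precision. No source used here names the genome build of the tiles, and their positions were moved onto ASM294v3 by fixed offsets. In 106 of 109 blocks of 100 kb the best offset by base composition lay within 300 bp of these.

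limma 3.58.1 (R 4.3.3) was fitted to the 4 Pds5-GFP arrays over 12538 annotated genes with Benjamini-Hochberg adjustment and 1 residual degree of freedom. It was also run on simulated arrays that all had the wild-type spread, with planted changes larger than the differences called here. That run cannot show whether the lone mutant arrays vary as the wild-type ones do. Values were computed in Python 3.11.15. Slides: both H3K9me2 arrays shared one, swi6D shared one with the second wild-type array, and the other arrays had one each. Named genes are, among single and clustered members apart, the 5 highest and 3 lowest in wild-type Pds5-GFP, the 3 furthest in either direction in each mutant, the 3 highest in H3K9me2 and the 3 furthest in either direction in pds5D, and every limma call; other genes were named after their values were seen. The members and lists were chosen with earlier results of these data known. Alternatives covered background, normalization, scale, tile choice, window, tile position, cluster gap and the wild-type arrays; 5 more were chosen after seeing the data.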

Additional observations from a re-analysis of the deposited data

How the results depend on the processing

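The swi6D median difference over members stayed below 0 under 15 of 16 alternatives and the clr4D one above 0 under 14 of 15. With normexp, the swi6D median turned to 0.29 (all genes -0.15), with 42 members past the size rule, 13 called lower, 56 called higher and 3920 genes called in all; clr4D had 1 member past the size rule, 364 genes called and 0 members called higher; H3K9me2 had 11 members past the size rule; the class medians of the wild-type mean were 0.0085 (single tRNA), -0.0394 (clustered tRNA) and -0.0573 (5S), and the local rise was 0.0558 in wild type, 0.47 in swi6D and 0.0703 in clr4D. With loess, swi6D had 1 member past the size rule, 371 genes and 3 members called lower, clr4D 394 genes and 2 members called higher, the H3K9me2 median difference was 0.0869, the class medians were 0.28, 0.49 and 0.32, and the rise was 0.36, 0.35 and 0.43. With the ChIP signal alone, with which the wild-type median of all genes was -0.165, swi6D had 291 genes and 1 member called lower; clr4D had a median of -0.0341, 7 members past the size rule, 324 genes called and 0 members higher; the H3K9me2 difference was 0.0779, class medians were -1.23, -1.51 and -0.73, and the rise was -1.01, -1.12 and -1.19. With equal deviation, 2 members were called higher in clr4D and the rise was 0.24, 0.24 and 0.28. With the deposited ratios, 4 members passed the size rule in swi6D, 523 genes were called there, 2 members were higher in clr4D, the H3K9me2 difference was -0.016, and the rise was 0.24 in wild type and 0.22 in swi6D. Without tiles of shared suffix, 442 and 473 genes were called in swi6D and clr4D, 1 member passed the size rule in clr4D, and the rise was 0.22 in wild type and 0.26 in clr4D. Without dim tiles the rise was 0.23 and 0.26.

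A window of 150 bp gave 1 member higher in swi6D, 3 lower in clr4D, an H3K9me2 difference of 0.1 and class medians of 0.22, 0.49 and 0.30. A window of 600 bp gave 1 member past the size rule in swi6D, 1 higher in clr4D and 16 past the size rule for H3K9me2. The nearest tile gave 486 and 522 genes called, 1 member higher in clr4D, an H3K9me2 difference of 0.0815, 43 members past the size rule and class medians of 0.24, 0.49 and 0.43. Tiles moved 300 bp up gave 1 member lower in clr4D, an H3K9me2 difference of 0.10 and a single tRNA median of 0.0886; moved down, they gave 0 members past the size rule in swi6D and -0.0186. A size rule of 1 left 0 members in swi6D and 6 for H3K9me2. Without SPATRNALYS.01, 1 member passed the size rule in swi6D. Leaving out one wild-type array, the members past the size rule in swi6D ran from 2 to 5 (5 without replicate 2), and the class medians from 0.15 to 0.21 (single tRNA), 0.27 to 0.48 (clustered tRNA) and 0.20 to 0.29 (5S); no limma test was possible there, nor with slide as a block, for want of residual degrees of freedom. The causes of these changes were not tested.

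Of the calls, SPATRNALYS.01 was made under 12 of 13 alternatives, SPATRNALYS.05, SPBTRNALYS.09 and SPATRNAGLY.02 under 11, SPBTRNATYR.04 under 9, SPCTRNASER.07 under 7, SPATRNAPRO.03 under 4, SPATRNAGLU.01 under 3 and SPCTRNAPRO.09 under 2; SPATRNAARG.01 was called lower under 6 of 12 and higher under 1 (normexp). No paired analysis was possible because only the wild-type Pds5-GFP group carries replicate numbers. Each mutant and each H3K9me2 genotype has 1 array, so no mutant value has an error of its own.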
